A study of Mus musculus with 4 samples.

Results

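The 36 genes described here encode Polycomb group proteins and the chromodomain (Cbx) proteins, and were chosen by name as the rows of the deposited gene table that carry those 36 symbols. All 36 were found, among 53465 genes in the table, and all 36 passed the filter on low counts, among 21822 genes tested. They were compared between whole testes of mice at postnatal day 18 that were wild type (labelled control in the protocol) and of mice with a conditional knockout of Sympk (cKO) made with Stra8-Cre, with 2 libraries in each group. All the mice were male and on a mixed C57BL/6 and ICR background. Stra8-Cre is active in male germ cells before meiosis, so that the somatic cells of the knockout testis keep Sympk, which encodes symplekin, a scaffold protein of the complexes that form the ends of mRNAs. The labels do not say that libraries came from separate animals, or whether testes were pooled, so the p-values measure the spread between these libraries only, which may be technical.

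Polycomb proteins work in a pair of enzyme complexes that keep genes silent. Polycomb repressive complex 2 (PRC2) methylates lysine 27 of histone H3 through Ezh2 or its paralogue Ezh1. PRC1 attaches ubiquitin to histone H2A through Ring1 or Rnf2, which pair with a Pcgf protein that sets the kind of PRC1; canonical PRC1 also holds a Cbx protein that reads the PRC2 mark and a polyhomeotic (Phc) protein. Cbx1, Cbx3 and Cbx5 are the HP1 proteins, which share the chromodomain but read methylated lysine 9 of histone H3 in heterochromatin. In the male germ line, Polycomb proteins are known for holding somatic genes silent, and mouse Scml2 is a germ cell member of PRC1.

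The 4 libraries held 32730868 to 41584389 counts each. Levels are counts in every 1000000 (CPM) after TMM scaling, which assumes that most genes do not differ, and 1 CPM stands for 32.7 to 41.6 counts before scaling. The fold changes are from edgeR's quasi-likelihood test of genotype, fitted to all tested genes, with Benjamini-Hochberg adjustment and a threshold of 0.05. They are log2 of cKO over wild type, with the standard error (SE) of the fit, and CPM are given as the mean ± SD of 2 libraries where not by library. Sympk itself was at 225 and 192 CPM in wild type and 171 and 173 CPM in cKO, a log2 fold change of -0.28 that did not pass (SE 0.141, adjusted p = 0.132). Without wild-type replicate 2 it was -0.41 and passed (adjusted p = 0.0313). The makeup of the tissue differed between the groups: a list of 12 markers of pachytene and later spermatocytes summed to 7933 and 7822 CPM in wild type and 122 and 149.8 CPM in cKO (11 of 12 fell). Early meiotic markers summed to 4493 and 4661 CPM in wild type and 338 and 497 CPM in cKO (12 of 12 fell), and 14 spermatid markers to 85.7 and 85.9 CPM in wild type and 7.94 and 7.04 CPM in cKO, where 8 of the 10 tested fell. The sum over 21 Sertoli cell markers was 4093 and 4701 CPM in wild type and 9873 and 8820.0 CPM in cKO (19 rose), and that over 14 spermatogonial markers 438 and 439 CPM in wild type and 552 and 570.5 CPM in cKO (8 rose and 2 fell). Of the spermatid list, Prm1 and Tnp2 were at 0 counts in wild type, and Actl7a and Catsper1 at 0 counts in cKO. Macrophage and endothelial markers rose in 9 of 9 cases each, with sums of 222 and 261 CPM in wild type and 513 and 564 CPM in cKO for the former and 98.6 and 88.6 CPM in wild type and 208 and 209 CPM in cKO for the latter. Leydig cell markers (393 and 553 CPM in wild type and 1043 and 1039 CPM in cKO) rose in 6 of 10 cases and fell in 1, and peritubular markers (879 and 809.6 CPM in wild type and 1680.0 and 1435 CPM in cKO) rose in 6 of 9. A list of 8 skeletal muscle markers summed to 14.0 and 699 CPM in wild type and 2453 and 1466 CPM in cKO, so that muscle RNA differed between libraries of one genotype as well as between genotypes. Mitochondrially encoded genes took 4.01% to 4.93% of the counts in wild type and 8.81% to 10.2% in cKO. In whole testes, fewer cells of a type and less RNA per cell cannot be told apart, and the part that these shifts in cell makeup play in each value below was not tested.

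Of the 36 genes, 23 changed, 17 of them lower and 6 higher in the cKO testes. That is 63.9% of the genes, beside 63.4% of all genes tested, and so no more than the background. By direction, 47.2% of the 36 were lower, beside 34.3% of all genes tested, and 16.7% were higher, beside 29.2%. The median log2 fold change was -0.44, beside -0.02 over all genes tested. Changes of at least 2-fold were found in 12 of the 36 (33.3%), 8 lower and 4 higher, beside 45.8% of all genes tested (26.3% lower and 19.5% higher). The libraries of the genotypes did not overlap in 29 of the 36 genes (80.6%), beside 83.8% of all genes tested. With single libraries left out in turn, the median of the 36 was -0.46 to -0.34, beside -0.07 to 0.02 over all genes tested. All 6 rises are relative to the TMM scale: with the libraries scaled to the median ratio of the Sertoli list genes instead, which moved the median of all genes from -0.02 to -1.26, 30 of the 36 were lower and 0 higher, and Rbbp7, Pcgf2 and Cbx8 went below 0.

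**Figure D1:**
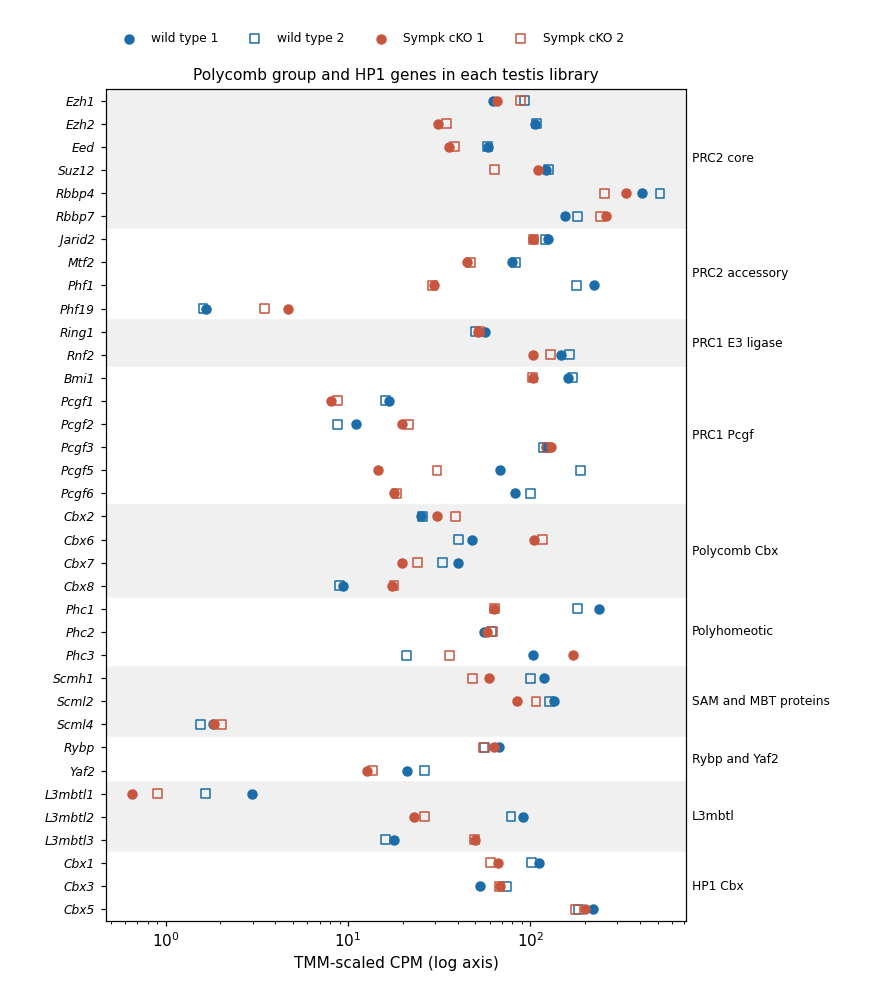
TMM-scaled CPM (log axis) of the 36 genes in each of the 4 libraries, grouped by role; blue symbols are wild type, red are Sympk cKO, filled circles are replicate 1 and open squares replicate 2. Most symbols of 1 genotype lie close together, and Phc3 and Pcgf5 are the genes whose replicates stand far apart in both genotypes.

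Levels per gene length, from the deposited FPKM (fragments per length of the gene and depth of the library), spanned a wide range in wild-type testes. Phf1 was at 76.5 ± 9.76 FPKM in wild type and 13.1 ± 0.432 FPKM in cKO, which put it above 97.7% of tested genes in wild type. Rbbp4 was at 44.0 ± 8.26, Pcgf6 at 40.5 ± 6.73 and Rbbp7 at 35.9 ± 4.70 FPKM in wild type, 3 levels whose spreads overlap. At the low end, Scml4 had 0.107 ± 0.00986, Phf19 0.181 ± 4.77e-04 and L3mbtl1 0.420 ± 0.160 FPKM in wild type. In cKO the order at the top was different: Rbbp7 led with 62.8 ± 0.388 FPKM, before Rbbp4 with 32.6 ± 4.83, Bmi1 with 17.3 ± 0.808 and Rnf2 with 17.1 ± 3.56 (SD, n = 2 for each).

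Of the enzymes of PRC2, Ezh2 fell and Ezh1 did not pass the test. Ezh2 (chromosome 6, 47530139 to 47595341, GRCm38), the main H3 lysine 27 methyltransferase of dividing cells, was at 107 and 109 CPM in the wild-type testes and 31.0 and 34.6 CPM in the cKO testes. Every cKO library was below every wild-type library, and the mean went from 108 ± 1.14 to 32.8 ± 2.53 CPM (SD, n = 2; log2 fold change -1.71 with SE 0.136, adjusted p = 1.61e-04), 3.28-fold lower. Ezh1 (chromosome 11, 101191115 to 101226463), the paralogue best known from resting cells, was at 62.5 and 92.7 CPM in the wild-type testes and 65.9 and 88.8 CPM in the cKO testes. Both cKO values lay inside the wild-type range (log2 fold change -0.0045 with SE 0.237, adjusted p = 0.988). The ratio of Ezh1 to Ezh2 in FPKM, which does not depend on the scaling between libraries, was 0.475 and 0.694 in wild-type testes and 1.73 and 2.08 in cKO testes, so that Ezh2 had the higher level per length in both wild-type libraries and Ezh1 in both cKO libraries.

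Among the other core subunits, Eed and Rbbp4 fell, Rbbp7 rose on the TMM scale but not on the Sertoli scale, and Suz12 did not pass. Eed, which binds the H3 lysine 27 mark and stimulates the enzyme, was at 59.1 and 58.4 CPM in wild type against 35.7 and 38.2 CPM in cKO (log2 fold change -0.67 with SE 0.134, adjusted p = 0.00579). With cKO replicate 1 left out, Eed did not pass (adjusted p = 0.0583). Suz12, the scaffold of the complex, was at 123 and 126 CPM in wild type against 111 and 63.9 CPM in cKO. The cKO libraries stood apart from each other, replicate 1 closer to wild type than replicate 2, and the difference did not pass (log2 fold change -0.51 with SE 0.256, adjusted p = 0.127). Without cKO replicate 1 the log2 fold change was -0.96 and passed (adjusted p = 0.0102), and without cKO replicate 2 it was -0.16. Rbbp4 and Rbbp7, histone-binding proteins that also serve other chromatin complexes, followed. Rbbp4 was at 408 and 516 CPM in wild type against 336 and 255 CPM in cKO (log2 fold change -0.65 with SE 0.199, adjusted p = 0.0294). It did not pass when replicate 2 was left out of either genotype (adjusted p = 0.0835 for wild type and 0.175 for cKO), or with libraries scaled to their totals (-0.43, adjusted p = 0.0849). The X-linked Rbbp7 (chromosome X, 162760402 to 162779092) was at 156 and 181 CPM in wild type against 262 and 243 CPM in cKO (log2 fold change 0.59 with SE 0.144, adjusted p = 0.0128), higher in both cKO libraries. With cKO replicate 1 left out it did not pass (adjusted p = 0.0824), and it turned to -0.65 on the Sertoli scale. The Rbbp4 to Rbbp7 ratio in FPKM was 1.17 and 1.27 in wild-type testes and 0.571 and 0.467 in cKO testes. It was above 1 in every wild-type library and below 1 in every cKO library. This crossing of 1 rests on the lengths behind the FPKM (9742 bp for Rbbp4 and 4343 bp for Rbbp7). By CPM, Rbbp4 was above Rbbp7 in every library.

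Among the accessory subunits of PRC2, the largest fall of all 36 genes was that of Phf1. Phf1, Mtf2 and Phf19 are the Polycomb-like proteins, which help PRC2 to bind chromatin. Phf1 (chromosome 17, 26933127 to 26937890, plus strand) was at 223 and 179.8 CPM in the wild-type testes and 29.7 and 29.2 CPM in the cKO testes. The groups lay far apart, with a mean that went from 201 ± 30.4 to 29.5 ± 0.399 CPM (SD, n = 2), 6.83-fold lower (log2 fold change -2.77 with SE 0.161, adjusted p = 4.66e-05). Mtf2 fell from 81.2 ± 2.74 to 46.2 ± 1.62 CPM (SD, n = 2; log2 fold change -0.81 with SE 0.130, adjusted p = 0.00232). Phf19, which is scarce in both genotypes, rose from 63 and 57 counts to 201 and 127 counts, or from 1.63 ± 0.0430 to 4.09 ± 0.860 CPM (log2 fold change 1.32 with SE 0.274, adjusted p = 0.00655); on the Sertoli scale it was 0.069 and did not pass. Summed over the 3 genes, the FPKM went from 88.0 and 74.5 in wild type to 16.2 and 17.1 in cKO, and the share of Phf1 in it was 94.8% and 93.4% in wild-type testes and 78.9% and 78.6% in cKO testes. Jarid2, which guides a separate form of PRC2, was at 126 and 121 CPM in wild type against 104 and 105 CPM in cKO, without overlap between the groups, and did not pass (log2 fold change -0.24 with SE 0.123, adjusted p = 0.137).

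**Figure D2:**
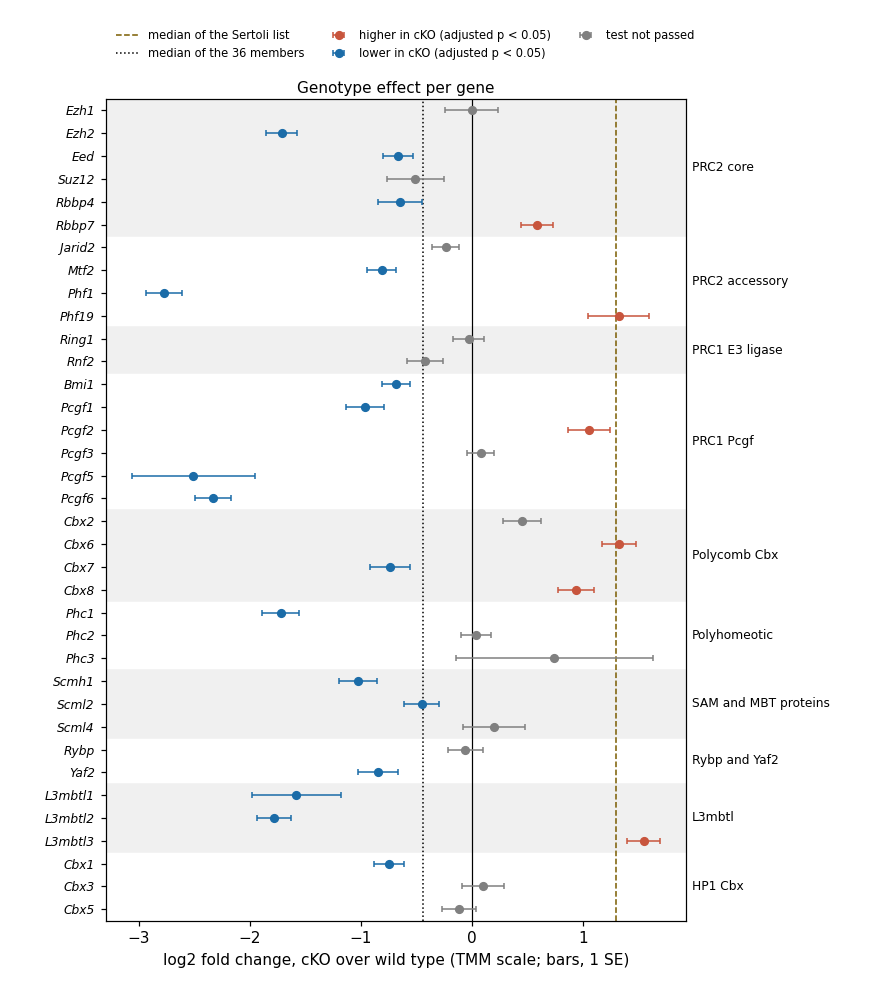
Log2 fold change of cKO over wild type (TMM scale) for each of the 36 genes, with bars of 1 SE from edgeR; blue marks genes that fell, red genes that rose and grey those that did not pass. The dotted line is the median of the 36 (-0.44), the dashed line that of the Sertoli marker list (1.29); L3mbtl3, Phf19 and Cbx6 are the only 3 of the 36 that reach the dashed line.

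The sequence before the start of the gene is shown for the 5 genes with the largest changes, 3 falls and 2 rises, among calls made again with any library left out and with a single RefSeq start (GRCm38.p6) whose upstream bases lie outside the gene in the deposited table. These genes were picked after their values were seen. Up to 250 bases are printed, reading 5′ to 3′ toward the gene; in Phf19 and Cbx8 the RefSeq start lies 50 and 56 bases inside the gene of the table, and those bases are left off. Capitals mark matches, on either strand, to 6 motifs. These are the GC box, spelled GGGCGG, the box named CCAAT after its letters, the motif of E2F factors, spelled TTCCCGC, and the E box of the Myc kind, spelled CACGTG. The other two are the motif of Myb factors, spelled CAACTG, and the cAMP response element, spelled TGACGTCA. The falls shown are those of Phf1 (chr17:26932877-26933126, plus strand), Pcgf6 (chr19:47050907-47051156, minus strand) and L3mbtl2 (chr15:81663639-81663888, plus strand), and the rises those of Phf19 (chr2:34914027-34914226, minus strand) and Cbx8 (chr11:119040970-119041163, minus strand).
Phf1: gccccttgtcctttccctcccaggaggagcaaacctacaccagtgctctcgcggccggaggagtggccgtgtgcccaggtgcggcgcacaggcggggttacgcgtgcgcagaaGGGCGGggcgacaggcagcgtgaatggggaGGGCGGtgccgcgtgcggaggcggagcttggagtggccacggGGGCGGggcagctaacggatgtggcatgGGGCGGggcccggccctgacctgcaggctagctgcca
Pcgf6: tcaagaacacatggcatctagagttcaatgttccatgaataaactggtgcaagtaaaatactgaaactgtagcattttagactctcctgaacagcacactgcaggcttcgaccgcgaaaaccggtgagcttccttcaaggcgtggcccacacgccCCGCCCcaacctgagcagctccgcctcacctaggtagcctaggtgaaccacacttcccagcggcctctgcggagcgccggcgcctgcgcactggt
L3mbtl2: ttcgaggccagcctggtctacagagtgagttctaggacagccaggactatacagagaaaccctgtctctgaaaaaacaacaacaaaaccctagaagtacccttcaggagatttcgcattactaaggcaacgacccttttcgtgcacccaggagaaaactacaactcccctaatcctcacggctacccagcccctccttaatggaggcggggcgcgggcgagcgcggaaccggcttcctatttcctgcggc
Phf19: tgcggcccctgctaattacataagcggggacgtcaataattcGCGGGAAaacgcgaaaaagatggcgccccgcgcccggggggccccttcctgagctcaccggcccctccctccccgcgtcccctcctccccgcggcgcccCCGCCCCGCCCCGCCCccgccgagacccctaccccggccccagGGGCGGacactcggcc
Cbx8: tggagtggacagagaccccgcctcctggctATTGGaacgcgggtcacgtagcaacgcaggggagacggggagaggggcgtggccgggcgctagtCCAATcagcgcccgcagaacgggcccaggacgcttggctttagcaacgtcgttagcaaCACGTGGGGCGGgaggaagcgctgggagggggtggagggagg
Phf1 has 4 GC boxes, Pcgf6 has 1 and L3mbtl2 has no match to any of the 6 motifs. In Phf19 there is 1 E2F motif and 4 GC boxes, of which 3 overlap one another, where each shares its last base with the next. In Cbx8 there are 2 CCAAT boxes, and 1 E box with 1 GC box right after it. Windows of 250 bases before a RefSeq start were found for 31 of the 36 genes, all but Pcgf1, Yaf2, Cbx2, Scml4 and Rybp, and 24 of those 31 hold a GC box, beside 33% of 32526 windows of all annotated starts. An E box was in 8 of 31 (6.04% of all windows), a CCAAT box in 11 (33.8%), an E2F motif in 4 (3.84%), and the Myb motif (11.1%) and the cAMP response element (1.56%) in 1 each, Cbx5 and Cbx8, in the latter outside the printed bases. Genes with several starts were counted as holding a motif if any window did. The 31 genes had a median of 22 CpG pairs per window, taking the window with the most for genes with several starts, beside 6 over all windows. A match describes letters in the sequence and not binding.

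The ligases of PRC1 did not pass the test. Ring1 was at 56.8 and 50.1 CPM in wild type against 51.7 and 53.0 CPM in cKO, with overlapping groups (log2 fold change -0.029 with SE 0.139, adjusted p = 0.865). Rnf2, the more abundant of the pair per length, was at 148 and 165 CPM in wild type against 103 and 130.0 CPM in cKO, without overlap, and did not pass (log2 fold change -0.42 with SE 0.162, adjusted p = 0.0585). Rnf2 passed with DESeq2 (adjusted p = 0.0338) and with RLE size factors, another scaling of the libraries (edgeR, adjusted p = 0.0449). On the Sertoli scale both ligases passed as lower, at -1.28 for Ring1 and -1.65 for Rnf2. Of the 6 Pcgf genes, whose proteins tell the kinds of PRC1 apart, 4 fell, 1 (Pcgf2) rose on the TMM scale though not on the Sertoli scale, and 1 did not pass. Pcgf6 (chromosome 19, 47033619 to 47050845), which marks the PRC1 form that represses germ cell genes in embryonic stem cells, was at 82.4 and 101 CPM in the wild-type testes and 18.0 and 18.5 CPM in the cKO testes. Both cKO values lay close together, and the gene was 5.03-fold lower (log2 fold change -2.33 with SE 0.161, adjusted p = 8.99e-05). Pcgf5, whose form of PRC1 takes part in X inactivation, was at 68.6 and 189 CPM in the wild-type testes and 14.6 and 30.8 CPM in the cKO testes. Replicate 2 was the higher library in each genotype, by 2.76-fold in wild type and 2.12-fold in cKO, and the groups still did not overlap (log2 fold change -2.51 with SE 0.553, adjusted p = 0.00838). The size of the Pcgf5 change depended on the library left out, from -1.61 without wild-type replicate 2 to -3.14 without cKO replicate 2. Pcgf3, its close paralogue, was at 122 and 119 CPM in wild type against 129 and 125 CPM in cKO and did not pass (log2 fold change 0.078 with SE 0.123, adjusted p = 0.605).

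The Pcgf genes of canonical PRC1 are Bmi1 (Pcgf4) and Pcgf2 (Mel18). Bmi1, which sustains stem cells in several tissues, was at 160.3 and 171 CPM in wild type against 103 and 103 CPM in cKO, 1.61-fold lower (log2 fold change -0.69 with SE 0.126, adjusted p = 0.00405). Pcgf2 rose from 9.93 ± 1.62 to 20.6 ± 1.11 CPM (SD, n = 2), 2.08-fold higher (log2 fold change 1.06 with SE 0.188, adjusted p = 0.00360); on the Sertoli scale it stood at -0.19 and did not pass. The Bmi1 to Pcgf2 ratio in FPKM was 11.8 and 15.9 in wild-type testes and 4.24 and 3.93 in cKO testes, so that Bmi1 kept the higher level per length in every library. Pcgf1, which forms PRC1 with Kdm2b and Bcor, was at 16.9 and 16.1 CPM in wild type against 8.11 and 8.82 CPM in cKO, 1.95-fold lower (log2 fold change -0.96 with SE 0.171, adjusted p = 0.00358). Of the summed FPKM of the family, Pcgf6 made up 44.2% and 45.2% in wild-type testes and 19.0% and 19.0% in cKO testes, and Bmi1 28.0% and 24.9% in wild-type testes and 35.5% and 34.5% in cKO testes. Per length, Pcgf6 was thus the leading Pcgf transcript in both wild-type libraries and Bmi1 in both cKO libraries. That order rests on the lengths behind the FPKM (2098 bp for Pcgf6, 6450 bp for Bmi1 and 10046 bp for Pcgf3). By CPM, Bmi1 was above Pcgf6 in both wild-type libraries, at 160 and 171 against 82.4 and 101. Pcgf3 was above Bmi1 in both cKO libraries, at 129 and 125 against 103 and 103.

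Of the 4 Polycomb Cbx genes among the 36, Cbx6 and Cbx8 rose on the TMM scale (neither on the Sertoli scale, where Cbx8 went below 0), Cbx7 fell and Cbx2 did not pass. Cbx6 (chromosome 15, 79823896 to 79834688) was at 48.1 and 40.4 CPM in the wild-type testes and 104 and 116 CPM in the cKO testes. It was 2.50-fold higher with no overlap (log2 fold change 1.32 with SE 0.152, adjusted p = 6.82e-04), and at 0.072 on the Sertoli scale. Cbx8 rose from 9.22 ± 0.304 to 17.7 ± 0.361 CPM (SD, n = 2; log2 fold change 0.94 with SE 0.165, adjusted p = 0.00344), and was at -0.31 on the Sertoli scale. Cbx7, the main Cbx of embryonic stem cells, was at 40.4 and 32.9 CPM in wild type against 19.9 and 24.1 CPM in cKO, 1.67-fold lower (log2 fold change -0.74 with SE 0.182, adjusted p = 0.0132). It did not pass with cKO replicate 1 left out (adjusted p = 0.0920) or with library totals (-0.51, adjusted p = 0.0590). Cbx2, whose loss causes male-to-female sex reversal in mice, was at 25.2 and 25.8 CPM in wild type against 30.8 and 38.9 CPM in cKO, higher in both cKO libraries but without passing (log2 fold change 0.45 with SE 0.170, adjusted p = 0.0575), and -0.78 on the Sertoli scale. Cbx2 passed as higher with library totals (0.68, adjusted p = 0.0219) and with a filter at a mean level of 5 CPM (0.50, adjusted p = 0.0451). The summed FPKM of these 4 genes was 13.5 and 12.8 in wild type and 22.3 and 27.5 in cKO, and the share of Cbx7 was 19.3% and 17.1% in wild-type testes and 6.58% and 6.92% in cKO testes. The Cbx7 to Cbx6 ratio in FPKM was 0.657 and 0.638 in wild-type testes and 0.149 and 0.162 in cKO testes.

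Phc1, Phc2 and Phc3 encode the polyhomeotic proteins, whose SAM domains join PRC1 particles to each other. Phc1 (chromosome 6, 122317731 to 122340561) was at 238 and 182 CPM in the wild-type testes and 63.5 and 63.9 CPM in the cKO testes. It was 3.30-fold lower, with cKO values less than 1 CPM apart (log2 fold change -1.72 with SE 0.169, adjusted p = 3.67e-04). Phc2 was at 55.9 and 61.5 CPM in wild type against 58.0 and 62.4 CPM in cKO and did not pass (log2 fold change 0.036 with SE 0.136, adjusted p = 0.830). Phc3 (chromosome 3, 30899371 to 30969415) was at 104 and 20.9 CPM in the wild-type testes and 172 and 36.2 CPM in the cKO testes. Replicate 1 was 4.98-fold above replicate 2 in wild type and 4.76-fold in cKO, the widest spread between replicates among the 36 in each genotype, so that the genotype difference lay within the spread between libraries (log2 fold change 0.74 with SE 0.886, adjusted p = 0.492). The cKO value was the higher one both among the replicates 1 and among the replicates 2. With single libraries left out the sign was not stable: the log2 fold change was 2.31 without wild-type replicate 1 and -0.78 without cKO replicate 1, with no call in either case.

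Of the Scm genes, Scmh1 and Scml2 fell and Scml4 did not pass. Scmh1, a relative of the fly Sex comb on midleg protein, was at 119.9 and 100.5 CPM in wild type against 59.8 and 48.3 CPM in cKO, 2.04-fold lower (log2 fold change -1.03 with SE 0.169, adjusted p = 0.00266). The X-linked Scml2 (chromosome X, 161117193 to 161258213), the germ cell member of PRC1, was at 136 and 128 CPM in wild type against 85.0 and 108 CPM in cKO. Its fall of 0.45 on the log2 scale passed narrowly (SE 0.158, adjusted p = 0.0447), and not when a library was left out other than cKO replicate 2. The adjusted p was 0.115 and 0.0704 without the wild-type libraries in turn, and 0.303 without cKO replicate 1. Scml2 was at -0.22 with library totals (adjusted p = 0.296), and it also did not pass without the filter on low counts, with a mean of at least 5 CPM or without mitochondrial genes (adjusted p of 0.0542, 0.0746 and 0.0565). Scml4 was scarce, with 55 to 79 counts per library, and did not pass (log2 fold change 0.20 with SE 0.277, adjusted p = 0.555). Of the pair that competes with Cbx proteins for Rnf2, Yaf2 fell from 23.8 ± 3.81 to 13.2 ± 0.751 CPM (log2 fold change -0.85 with SE 0.182, adjusted p = 0.00751) and Rybp did not pass (67.8 and 56.2 CPM in wild type against 63.2 and 55.7 CPM in cKO; log2 fold change -0.061 with SE 0.156, adjusted p = 0.751).

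The L3mbtl genes encode MBT-domain readers of lower methylated lysines, and all 3 changed on the TMM scale: L3mbtl1 and L3mbtl2 fell, and L3mbtl3 rose, though not on the Sertoli scale. L3mbtl2 (chromosome 15, 81663889 to 81688315), a partner of Pcgf6 in PRC1, was at 91.4 and 78.5 CPM in the wild-type testes and 23.2 and 26.2 CPM in the cKO testes, 3.44-fold lower (log2 fold change -1.78 with SE 0.156, adjusted p = 2.35e-04). L3mbtl3 (chromosome 10, 26274468 to 26375971) was at 17.9 and 16.1 CPM in the wild-type testes and 49.6 and 49.7 CPM in the cKO testes. It had the largest rise of the 36, 2.92-fold (log2 fold change 1.54 with SE 0.148, adjusted p = 3.37e-04), and was at 0.30 on the Sertoli scale (adjusted p = 0.225). L3mbtl1 was scarce, with 113 and 59 counts in wild type and 28 and 33 in cKO (log2 fold change -1.58 with SE 0.404, adjusted p = 0.0149). It did not pass when replicate 1 was left out of either genotype (adjusted p = 0.0717 for wild type and 0.0605 for cKO). The L3mbtl2 to L3mbtl3 ratio in FPKM was 5.06 and 4.84 in wild-type testes and 0.464 and 0.524 in cKO testes, the largest shift among the 20 ratios of related genes computed here (-3.33 on the log2 scale).

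Of the 3 HP1 genes, Cbx1 fell and Cbx3 and Cbx5 did not pass. Cbx1 (HP1 beta) was at 111 and 102 CPM in wild type against 66.6 and 60.4 CPM in cKO, 1.68-fold lower (log2 fold change -0.75 with SE 0.135, adjusted p = 0.00379). Cbx5 (HP1 alpha) was at 222 and 185 CPM in wild type against 199 and 177 CPM in cKO, with overlapping groups (log2 fold change -0.12 with SE 0.154, adjusted p = 0.535). Cbx3 (HP1 gamma) was at 53.0 and 74.3 CPM in wild type against 68.3 and 68.2 CPM in cKO, also overlapping (log2 fold change 0.10 with SE 0.186, adjusted p = 0.661). The summed FPKM of the 3 genes was 39.0 and 39.0 in wild type and 37.4 and 36.9 in cKO, with Cbx1 at 43.1% and 40.9% in wild-type testes and 30.9% and 30.4% in cKO testes. The Cbx3 value rests on how shared reads were assigned: 7 processed pseudogenes and 2 other genes share at least 300 bp at 95% identity or more with Cbx3, and together they were given 20670 counts over the 4 libraries, beside 10062 for Cbx3. With the counts of the pseudogenes added, Cbx3 went from 125.3 ± 18.1 to 135.5 ± 4.34 CPM and still did not pass (adjusted p = 0.531). Pseudogenes of Rbbp7, Rybp, Pcgf1 and Bmi1 held 16.4%, 16.5%, 8.03% and 1.92% of their parent's counts, and adding them changed no call among the 36.

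**Figure D3:**
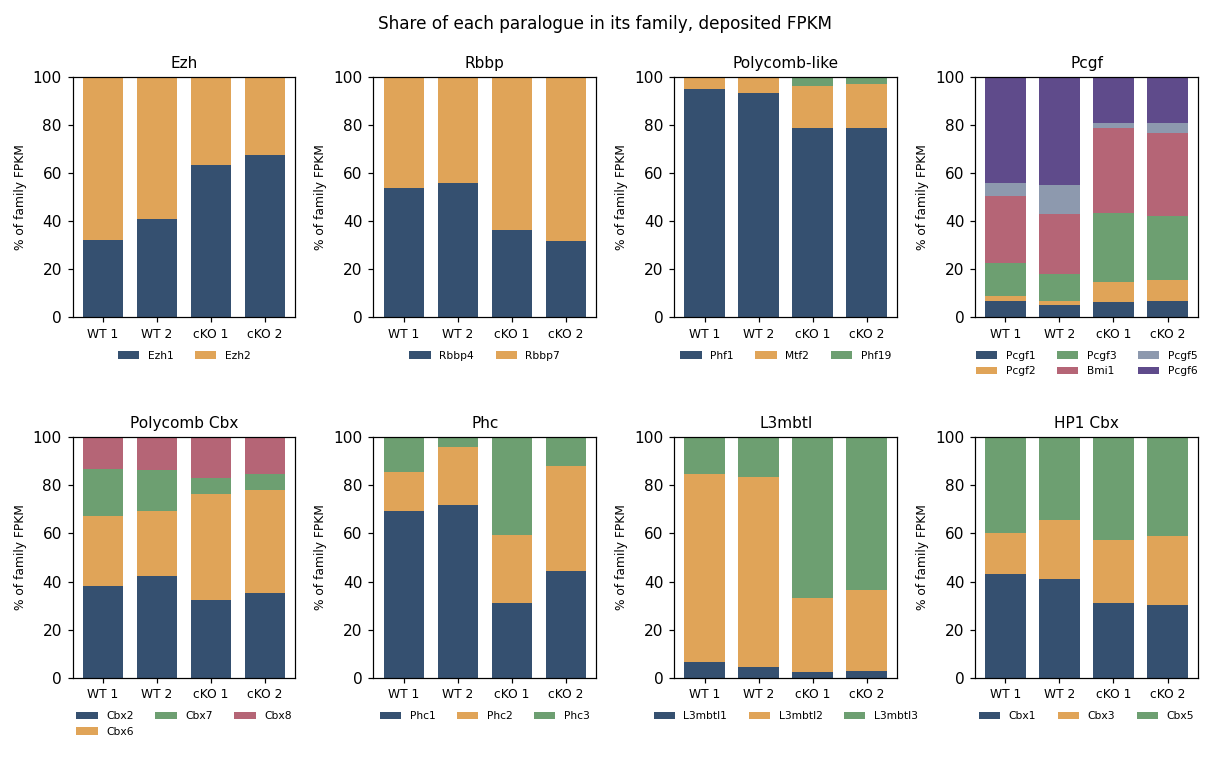
Share (percent) of each paralogue in the summed deposited FPKM of its family in each of the 4 libraries, 2 wild type (WT) and 2 cKO; each family holds its members among the 36. Ezh1 goes from 32.2% and 41.0% to 63.3% and 67.6% of the Ezh sum, and L3mbtl3 from 15.4% and 16.4% to 66.8% and 63.7% of the L3mbtl sum.

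Ratios between related genes within a library do not depend on scaling, and 20 pairs were compared. In 19 of the 20 the wild-type and cKO libraries did not overlap, and the exception was Phc3 over Phc2. The 83.8% of all genes tested that did not overlap are single genes in TMM-scaled CPM. That share is not a background for ratios of chosen pairs, and none was computed. Several pairs share a gene, so they are not independent. Each of the 19 has an exact two-sided permutation p of 0.333, the smallest that 2 libraries against 2 allow, so that this test cannot reach the threshold. After L3mbtl2 over L3mbtl3, the shifts with the largest size were L3mbtl1 over L3mbtl3 (-3.08), Pcgf3 over Pcgf5 (2.50), Phf19 over Mtf2 (2.12), Cbx7 over Cbx6 (-2.06) and Phf1 over Mtf2 (-1.95), all as the log2 ratio in cKO minus that in wild type. The smallest was Ring1 over Rnf2 (0.41).

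Some genes overlap another gene on the genome, and the sources used here do not say whether counting used strand. Phf1 shares 4072 bp with Cuta on the other strand, whose level was 12.2 CPM in both genotypes (log2 fold change -0.00065, SE 0.174). Cbx7 shares 100 bp with Apobec3, which rose by 1.32 on the log2 scale (SE 0.208) while Cbx7 fell. Cbx6 and Npcd lie on the same strand and share 10342 bp. Npcd went from 0.434 to 1.07 CPM and also passed as higher (log2 fold change 1.29 with SE 0.366, adjusted p = 0.0217). It was given 117 counts over the 4 libraries, beside 11966 for Cbx6, and whether the genes share reads was not tested. Rbbp4, Rbbp7, Mtf2, Rnf2 and L3mbtl2 overlap Sync, Txlng, Tmed5, Trmt1l and Chadl, none of which passed the test.

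Other genes of the Polycomb and HP1 pathways, from lists made by name, also moved in both directions on the TMM scale, and of the rises named below none passed on the Sertoli scale, where Lcor, Uty, Cdyl and Cdyl2 went below 0. The counts per list, that of the Hox genes included, stand beside 29.2% of all genes tested that rose and 34.3% that fell. Values here are log2 fold changes where not in CPM. Of 5 other PRC2 partners, 1 rose and 2 fell. Lcorl went from 56.0 ± 0.348 to 20.0 ± 6.59 CPM and the PRC2 cofactor Aebp2 from 61.8 ± 3.05 to 43.9 ± 2.17 CPM. Lcor had a log2 fold change of 0.65 (adjusted p = 0.0466). Lcor did not pass with RLE size factors (adjusted p = 0.0594) or without the filter on low counts (adjusted p = 0.0526). It also did not pass without wild-type replicate 2 (log2 fold change 0.35) or without either cKO library (0.68 and 0.62). Aebp2 did not pass with either cKO library left out (adjusted p = 0.0859 and 0.144) or with library totals (adjusted p = 0.124). Of 15 other PRC1 partners, 5 rose and 6 fell. Bcor and Bcorl1, corepressors of the Pcgf1 form, rose by 1.54 (SE 0.269) and 1.63 (SE 0.199), Auts2, of the Pcgf3 and Pcgf5 forms, by 1.31 (SE 0.160), and the kinase subunit gene Csnk2b went from 379 ± 42.7 to 79.1 ± 6.93 CPM. Kdm2b, also of the Pcgf1 form and named after its value was seen, fell by 0.75 (SE 0.157). Fbrs and Tfdp1 fell by 1.37 and 0.78.

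Of 7 other SAM and MBT genes, 5 fell and 1 rose, with a median of -1.62. Samd7, a Polycomb gene of the retina, went from 18.0 ± 0.105 to 0.311 ± 0.142 CPM, Sfmbt1 from 284 ± 16.1 to 52.8 ± 5.61 CPM and Mbtd1 from 256 ± 3.91 to 83.5 ± 5.76 CPM, and L3mbtl4 rose from 14.6 ± 2.21 to 36.1 ± 2.34 CPM. In the PR-DUB complex, which takes ubiquitin off histone H2A, 2 of 10 genes rose and 2 fell. Ogt, the enzyme that adds O-GlcNAc to proteins, and its partner Hcfc1 rose by 1.66 and 1.25, and the deubiquitinase Bap1 and the transcription factor gene Foxk2 fell by 0.67 and 1.05. Bap1 did not pass without cKO replicate 2 (adjusted p = 0.0527). The demethylases that remove the PRC2 mark, Kdm6b and the Y-linked Uty, rose by 1.35 and 1.09 (the latter a much weaker enzyme), and Kdm6a did not pass (log2 fold change 0.40 with SE 0.254, adjusted p = 0.215). Among 14 genes of H3 lysine 9 methylation and HP1 partners, 4 rose and 6 fell. The histone chaperone gene Chaf1a, Mphosph8 of the HUSH silencing complex and the corepressor gene Trim28 fell by 2.21, 2.06 and 1.24, and the heterochromatin remodeller gene Atrx, Cdyl and Cdyl2 rose by 1.64, 1.0 and 0.99.

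Hox genes, the textbook targets of Polycomb silencing, were mostly scarce. Of 39 listed, 28 passed the filter on low counts, which a gene can pass through the group where it is high, and of these 18 rose and 2 fell, with a median log2 fold change of 1.13, below the 1.29 of the Sertoli list. Hoxd4 went from 2.90 ± 0.951 to 10.9 ± 0.638 CPM, Hoxd9 from 7.41 ± 0.0177 to 24.5 ± 3.21 CPM and Hoxd10 from 2.94 ± 0.265 to 9.10 ± 1.01 CPM; none of the 3 passed on the Sertoli scale (log2 fold changes of 0.65, 0.47 and 0.39). The 2 that fell were Hoxa4, a Hox gene known for its expression in mouse spermatocytes, and its neighbour Hoxa3. Hoxa4 was at 44.2 and 77.9 CPM in the wild-type testes and 0.514 and 0.986 CPM in the cKO testes (log2 fold change -6.36 with SE 0.438, adjusted p = 8.81e-05), and Hoxa3 at 9.12 and 18.5 CPM in wild type against 1.31 and 1.48 CPM in cKO (log2 fold change -3.31 with SE 0.390, adjusted p = 7.30e-04). Summed over the 39 genes, Hox RNA was 102 and 139.5 CPM in wild type and 103 and 96.6 CPM in cKO.

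**Figure D4:**
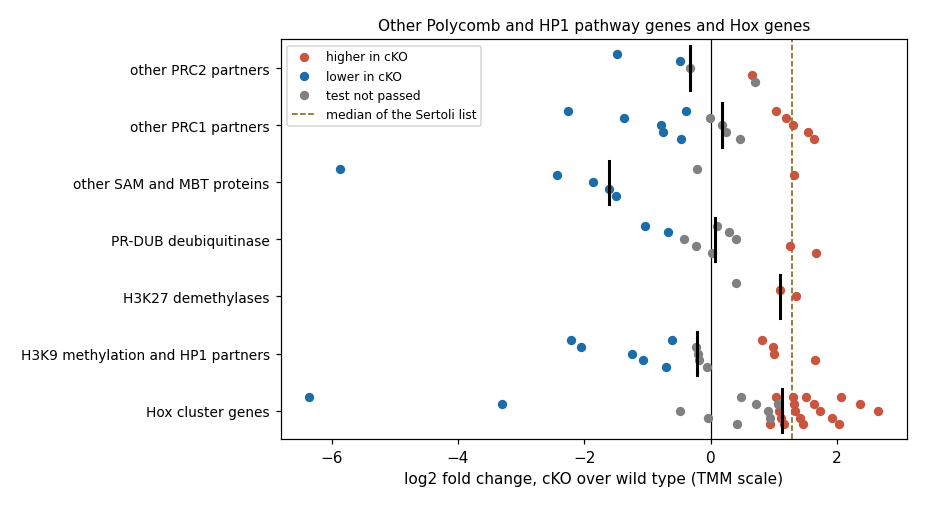
Log2 fold change of cKO over wild type (TMM scale) for the tested genes of each list of related genes; each point is a gene, coloured by the call, black bars are list medians and the dashed line is the median of the Sertoli marker list (1.29). Hoxa4 and Hoxa3 lie far to the left of the other Hox genes. The median of all 28 tested Hox genes, these included, is 1.13.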

How the data were processed

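The authors deposited 1 table that holds, for 53465 genes in 4 libraries, raw read counts and FPKM values. The submitters' processing notes name HISAT2 and GRCm38, with no version. How reads were counted, with which annotation, strand setting and gene lengths, is not given in the sources used here. Libraries were made from total RNA with a TruSeq kit and random primers, per the labels' protocols. The deposited FPKM were the counts over the library total and 1 length per gene, in all 12705 genes with over 100 counts in every library, and were used for levels and ratios between genes. Coordinates are those of the table; 34 of the 36 genes had the same ones in GENCODE M21.

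Counts were filtered with filterByExpr, scaled with TMM and tested with edgeR 4.0.16 in R 4.3.3 (quasi-likelihood test, two-sided, genotype as the only term). Replicates differed by more than sampling noise (chi-square per gene of 46.7 in wild type and 22.1 in cKO). The procedure was run on simulated data in which only a small share of genes differed. That run could not test the TMM assumption at the share of changed genes found here. Alternatives used DESeq2 1.42.0, limma-voom (limma 3.58.1), other scalings and filters, and each library left out; a crossed block and added pseudogene counts were chosen after seeing the data. Near-identical copies were found with BLAST 2.17.0, and ratios tested with scipy 1.17.1. The 36 genes and all lists were chosen with earlier results of these data known. Genes of other lists are named where changed, at a mean of at least 1 CPM, up to 3 in each direction.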

Additional observations from a re-analysis of the deposited data

How the results depend on the processing

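With all 4 libraries, 21 to 24 of the 36 changed in every setting except the Sertoli scale, 6 to 7 higher and 14 to 18 lower. The share of all genes tested that changed in those settings ranged from 41% to 69.4%. The low end was without the filter on low counts, where 22 of the 36 changed. The high end was a mean of at least 5 CPM, where 21 changed. Leaving out single libraries gave a median of -0.46 to -0.34 for the 36. Library totals gave a median of -0.21 for the 36 and 0.20 for all genes, ended the calls of Rbbp4, Cbx7 and Scml2 and added that of Cbx2. On the Sertoli scale 30 were lower and 0 higher, beside 13539 lower and 325 higher of all 21822 genes tested. The median there was -1.67 (-1.26 for all genes), and 40 of the related genes were lower and 1 higher (Hoxa9, named after its value was seen). Sympk was at -1.53 on that scale (adjusted p = 0.00101). That scale also turned Rbbp7 to -0.65, Pcgf2 to -0.19, Pcgf3 to -1.17, Cbx2 to -0.78, Cbx3 to -1.13, Cbx8 to -0.31, Phc2 to -1.20, Scml4 to -1.05, Lcor to -0.62, Kdm6a to -0.88, Uty to -0.15, Cdyl to -0.23 and Cdyl2 to -0.28. Ezh1, Suz12, Jarid2, Ring1, Rnf2, Cbx5 and Rybp, which did not pass on the TMM scale, passed as lower on the Sertoli scale. The Sertoli scale assumes equal Sertoli RNA in all libraries, which was not tested. A mean of at least 5 CPM left 9228 changed genes of 13299 tested and 19 related genes higher. Only 33 of the 36 were tested at that setting, since Phf19, Scml4 and L3mbtl1 fell below it. Sympk was at -0.41 and passed without wild-type replicate 2, and its range over single libraries left out was -0.406 to -0.161.

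The deviations of same-numbered libraries from their group means had a correlation of -0.114 over 21822 genes, and no label says that the numbers pair libraries, so they are not taken to do so; single genes such as Phc3 and Pcgf5 deviated the same way in both genotypes. With a replicate block 12569 genes changed, 23 of the 36 among them, Phc3 passed (0.76, adjusted p = 0.00873) and Scml2 did not (adjusted p = 0.0677), and no other gene named here changed its call. The crossed block gave 13412 genes and 23 of the 36. Scml4, L3mbtl1 and Phf19 had the fewest counts of the 36.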
